A study of Mus musculus with 2 samples.

Results

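Cd28-positive natural killer (NK) cells of the mouse spleen are described here, that is, gated NK cells in which at least 1 transcript of Cd28 was captured. They numbered 1964, or 26.3% of the 7458 cells that passed the same NK gate, among 11692 cells analysed and 16384 barcodes in all. The other 5494 gated cells, in which no Cd28 transcript was captured, served as the comparison and are called Cd28-zero cells. Some of them may still have held Cd28 transcripts that were not captured. The study measured single-cell RNA from spleens of wild-type mice, after NK cells had been enriched by negative selection with an NK Cell Isolation Kit, which magnetically removes T, B, dendritic and erythroid cells, granulocytes and macrophages. Libraries were built with a 10x Genomics 3′ kit (v3.1), and lipid tags marked cells so that several mice could be run together. Both of the 2 samples in the labels are wild-type spleen NK cells with no treatment named. Sample 1, a single library, was analysed here, and sample 2 was not analysed here. The labels state neither the age of the mice nor which tag belonged to which mouse, so the 3 tags were treated as 3 replicates of 1 library. With the tag as a block, p-values measure only how far the difference between classes varied from tag to tag, and that variation may be technical.

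A gated cell had 500 to 6000 detected genes, at most 10% mitochondrial unique molecular identifiers (UMIs, counted transcripts) and exactly 1 tag over its cutoff. The cells were chosen by their measured UMIs: each held a UMI of at least 2 of the NK genes Ncr1, Klrb1c and Klre1, and no UMI of Cd3d, Cd3e, Cd3g, Trac, Il7r or Cd79a. Before that last condition 2958 cells with a Cd28 UMI passed the NK condition, and 994 of them were removed, most often for Il7r (592 cells) or Cd3d (329 cells). Tags 1, 2 and 3 gave 633, 771 and 560 Cd28-positive cells and 1718, 2102 and 1674 Cd28-zero cells. Cd28-positive cells were deeper, with a median of 4919 gene UMIs per cell (4549, 5533 and 4728 by tag) against 3568.5 (3562.5, 3720.5 and 3397). A deeper cell is more likely to show any given transcript, so each main result was also computed against 1964 Cd28-zero cells of the same tags. These were matched one by one for depth, with a median of 4913 UMIs. The match was not exact: the largest gap was 4135 UMIs, and the matched cells held 10942223 UMIs in all against 11247078 in Cd28-positive cells. Levels are given as CPM, which is a gene's UMIs per 1000000 gene UMIs of those cells.

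CD28 is a co-stimulatory receptor best known on T cells, where it binds CD80 and CD86 on antigen-presenting cells and strengthens signals from the T cell receptor. NK cells mature from precursors through stages that are told apart in mice by CD27 and CD11b (encoded by Itgam). Of cells with either protein, those with CD27 alone are the least mature, and those with both follow. Cells with CD11b alone are the most mature and carry the most granule proteases. Early cells depend on factors such as TCF-1 (Tcf7), while ZEB2 and T-BET drive the late program.

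Cd28 lies at chr1:60716800-60773359 on the plus strand in mm10 (GENCODE M21), and no other gene model overlaps it. TCF-1 and its relative LEF-1 bind DNA with the core CTTTGA, and Tcf7 was among the genes that were higher in Cd28-positive cells. The core or its reverse complement TCAAAG stood in the RefSeq promoters (GRCm38.p6, 300 bases, from 250 before to 50 after the start) of 3 of the 10 most strongly higher genes with an entry and of 2 of the 9 most strongly lower ones, Cdc20b and Blvrb. All promoters held it in 4911 of 27025 genes, or 18.2%. It stood in 3 of 15 promoters of the early NK genes listed and in 2 of 16 of the late NK genes. The first 2 of the 3 sequences belong to leading higher genes with the core, Emb at chr13:117220323-117220622 (plus strand, inside the GENCODE span of the gene) and Ifngas1 at chr10:118556476-118556775 (minus strand), and the last to Kcnj8 at chr6:142571565-142571864 (minus strand), a leading lower gene without it. Capitals mark the core on either strand.
Emb: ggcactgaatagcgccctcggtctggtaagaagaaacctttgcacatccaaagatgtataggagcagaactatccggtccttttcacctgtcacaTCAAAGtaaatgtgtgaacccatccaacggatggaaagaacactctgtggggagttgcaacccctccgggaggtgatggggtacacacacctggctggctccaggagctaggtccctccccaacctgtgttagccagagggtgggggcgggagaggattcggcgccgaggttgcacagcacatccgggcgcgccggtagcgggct
Ifngas1: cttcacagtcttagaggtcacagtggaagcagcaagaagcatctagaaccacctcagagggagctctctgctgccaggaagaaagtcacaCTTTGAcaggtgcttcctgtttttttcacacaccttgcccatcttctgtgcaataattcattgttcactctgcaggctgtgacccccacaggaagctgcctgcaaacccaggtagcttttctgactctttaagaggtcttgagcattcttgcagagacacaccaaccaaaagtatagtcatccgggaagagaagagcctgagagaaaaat
Kcnj8: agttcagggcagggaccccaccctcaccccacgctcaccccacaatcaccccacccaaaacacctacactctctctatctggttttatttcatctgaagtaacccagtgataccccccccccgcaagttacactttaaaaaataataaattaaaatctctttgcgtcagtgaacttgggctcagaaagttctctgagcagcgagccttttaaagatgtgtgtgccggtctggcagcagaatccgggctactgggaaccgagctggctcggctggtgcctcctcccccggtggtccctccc
A match is a description of letters and no evidence of binding. Cd28 and Thy1 were not among the promoters used here.

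The gate's NK label was checked against NK genes. Klre1 and Klrb1c, which the gate used, had a UMI in 98.1% ± 0.0743 (SD, n = 3 tags here and below) and 96.8% ± 1.12 of them. Of NK genes the gate did not use, Klrk1 (NKG2D) was found in 98.2% ± 0.584, Klrd1 (CD94) in 95.7% ± 1.59, Nkg7 in 97.3% ± 0.855 and Gzma, a granule protease, in 96.3% ± 1.34. In B cell barcodes, at a median of 3682.5 UMIs, the shares were 11.4% for Klrk1, 14.4% for Klrd1, 30.3% for Nkg7 and 58.5% for Gzma, the background beside which the NK shares stand. Cd4, Cd5, Cd8b1, Cd40lg and Tcrg-C2 had no UMI in any Cd28-positive cell, and Cd8a had one in 0.216% ± 0.374. Cd6 and Lat went the other way. Cd6 was in 0.155% ± 0.0245 of Cd28-positive and 0.0552% ± 0.00663 of Cd28-zero cells, and so rested on very few cells. In depth-matched Cd28-zero cells the Cd6 share was 0.103% ± 0.0923, with Cd28-positive cells higher in 1 of 3 tags. Lat was in 18.6% ± 0.608 and 13.8% ± 1.19, higher in 3 of 3 tags, and in 1.27% of B cell barcodes. Against depth-matched Cd28-zero cells the Lat difference was 1.58 percentage points, with 2 of 3 tags higher. Trbc1 and Trbc2, the near-identical constant regions of the T cell receptor beta chain, were in 76.9% ± 2.37 and 42.0% ± 3.39, but also in 60.5% ± 2.43 and 33.4% ± 1.58 of Cd28-zero cells, so they mark most of the gate. Early is a name for these cells and was not shown for each of them. Itgam had a UMI in 52.4% ± 0.83 of Cd28-positive cells. Its share was 54.9% ± 1.69 in Cd28-zero and 58.7% ± 2.44 in depth-matched Cd28-zero cells.

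The share of gated NK cells with a Cd28 UMI is what the rule used and is given as a description. It was 26.9%, 26.8% and 25.1% in tags 1, 2 and 3, and the 3 tags lay close together. When each cell was thinned to 2500 UMIs, which left out 125 Cd28-positive and 836 Cd28-zero cells, the shares were 18.6%, 18.1% and 18.4%. Cells were classed anew by the Cd28 UMIs left, giving 1191 Cd28-positive and 5306 Cd28-zero cells. In thinned comparisons the Cd28-zero class thus also held cells with a Cd28 UMI before thinning. The part of this in genes that did not pass after thinning was not tested. In B cell barcodes, which should lack the gene, the share before thinning was 9 of 472, or 1.91%. The exact binomial 95% interval was 0.876 to 3.59% (counting error only), at a median of 3682.5 UMIs. The gated NK cells had a median of 3832.5 UMIs, so the NK share stood far above that background at like depth. T cell barcodes held Cd28 in 58 of 77 cells (75.3%, exact interval 64.2 to 84.4%), and NK barcodes with Il7r, which the gate removed, in 421 of 847 (49.7%, exact interval 46.3 to 53.1%).

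Levels of Cd28 followed the same order. They were 346 ± 85.7 CPM in T cell barcodes, 193 ± 30.9 in Il7r-positive NK barcodes, 100.1 ± 7.59 in all gated NK cells and 5.40 ± 4.96 in B cell barcodes. The tags of neighbouring groups in that order did not overlap. Among the 1964 cells, 1148 held 1 Cd28 UMI, 452 held 2, 203 held 3, 94 held 4 and 67 held 5 or more, up to 11. Ranked by depth in 4 equal groups, the shares were 12.8% ± 3.26 in the shallowest cells, then 16.4% ± 2.64 and 29.1% ± 1.40, and 47.1% ± 1.71 in the deepest. Cd28 in CPM, which allows for depth, was 78.3 ± 21.4 and 66.1 ± 10.4 in the shallower groups and 105 ± 7.08 and 118 ± 8.36 in the deeper ones.

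**Figure D1:**
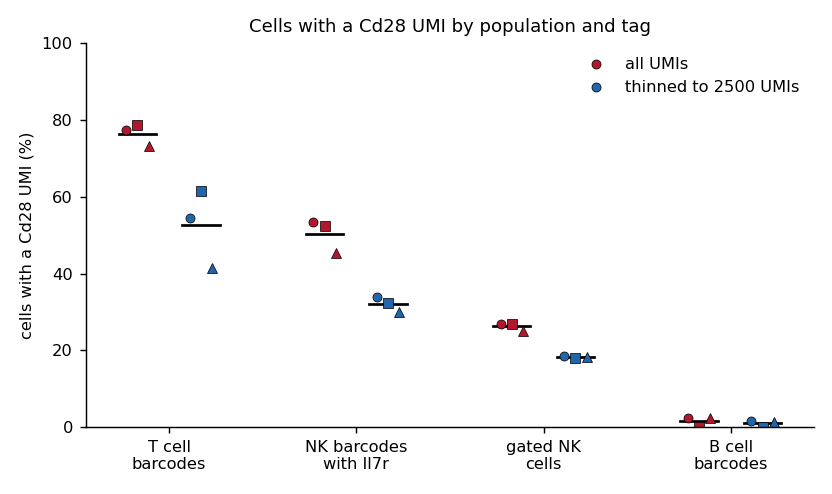
Percent of cells with at least 1 Cd28 UMI (y axis, from 0) in 4 groups of barcodes, with circles, squares and triangles for tags 1, 2 and 3, bars for the mean of tags, red for all UMIs and blue for cells thinned to 2500 UMIs. Gated NK cells lie at 25.1 to 26.9% before thinning, well above the B cell barcodes and below the NK barcodes with Il7r and the T cell barcodes.

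Cells at the edge of the rule were looked at as a description. Cells with exactly 1 Cd28 UMI had Emb at 548 CPM and Gzma at 7878 CPM, against 260.4 and 10386 CPM in cells with none. The 193 Cd28-positive cells with exactly 2 of the 3 NK genes had Gzma at 4578 CPM, and the 48 barcodes just outside, with 1 NK gene, had 1148 CPM at a median of 1741 UMIs.

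Thy1, Emb, Klrc1 and Rab27b were named together with this population from these data, so their values are given without a test. Emb encodes embigin, a membrane glycoprotein and chaperone of lactate transporters, at chr13:117208536-117274415 on the plus strand. Its level was 938, 563 and 455 CPM in Cd28-positive cells of tags 1, 2 and 3, against 351, 226 and 213 CPM in Cd28-zero cells. Every Cd28-positive value lay above every Cd28-zero value, and tag 1 was high in both classes. Emb had a UMI in 65.9% ± 2.38 of Cd28-positive and 32.5% ± 2.69 of Cd28-zero cells, and in 52.1% ± 5.65 and 30.3% ± 3.36 after thinning. Thy1 (CD90, at chr9:44043384-44048579 on the plus strand), a surface protein of T cells and early NK cells, was at 63.9, 72.6 and 71.9 CPM against 25.4, 33.7 and 32.9 CPM. The classes did not overlap for Thy1, and its fold was 1.21 on the log2 scale, or 0.86 against depth-matched cells.

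Klrc1 and Rab27b set the classes apart less clearly. Klrc1 (NKG2A, at chr6:129666015-129678973 on the minus strand), the inhibitory partner of CD94, was at 220.1, 198 and 282 CPM against 174, 179 and 238 CPM. The classes overlapped, because tag 3 was high in both, although Cd28-positive cells were higher within each tag. Rab27b (at chr18:69979131-70141605 on the minus strand), a small GTPase of secretory granules, was at 58.2, 34.5 and 39.0 CPM against 34.1, 28.4 and 27.0 CPM. Its lowest Cd28-positive value lay just above its highest Cd28-zero value.

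The 4 markers Thy1, Emb, Klrc1 and Rab27b came together in few cells. All 4 were found in 71 Cd28-positive cells, 3 in 265, 2 in 577, 1 in 705 and none in 346. None of the 4 was found in 17.6% ± 0.736 of Cd28-positive and 41.3% ± 1.98 of Cd28-zero cells, and after thinning in 28.1% ± 0.943 and 45.2% ± 2.32.

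Across all genes, 560 of 11769 tested were higher in Cd28-positive cells (4.76%) and 244 lower (2.07%), by edgeR's quasi-likelihood test with the tag as a block and a Benjamini-Hochberg adjusted p under 0.05. Against depth-matched Cd28-zero cells, 107 of 10797 were higher (0.991%) and 99 lower (0.917%). Of the 786 genes called in the first comparison and tested in both, 172 were called in both, every one in the same direction, and 772 kept their sign. Without the tag block 69 genes were higher (0.586%) and 27 lower (0.229%). DESeq2 called 208 higher (1.77%) and 69 lower (0.586%). Values of the 3 tags did not overlap between the classes for 7.26% of tested genes in the higher direction and for 11.3% in the lower, the background for each statement on overlap.

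Genes of early NK cells were higher as a group, and the group's direction held after matching for depth. Of the 19 genes of the early list, 18 were higher and 0 lower, with a median log2 fold of 0.80 against -0.004 over all tested genes. Against depth-matched cells 15 of 19 were higher and 0 lower, with a median of 0.44 against 0.001 over all tested genes. Emb, Thy1 and Klrc1 belong to that list. Without them 15 of 16 were higher, and 12 of 16 against depth-matched cells, beside 4.76% and 0.991% of all tested genes. Several of the list's genes were already known to be high in these cells when the list was made, so it is no independent evidence of their stage.

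Tcf7, which encodes TCF-1, was at 142, 113 and 137 CPM in Cd28-positive cells of tags 1, 2 and 3 and at 71.6, 64.2 and 79.2 CPM in Cd28-zero cells. The classes did not overlap, and the difference was 1.85-fold (log2 0.89, SE 0.06, edgeR adjusted p = 2.43e-07) or log2 0.62 against depth-matched cells (edgeR adjusted p = 0.000342). Ltb, encoding lymphotoxin beta, was at 153, 146 and 162 CPM against 66.4, 69.3 and 85.7 CPM, a 2.13-fold difference (log2 1.09, SE 0.06, edgeR adjusted p = 3.42e-08). Its Cd28-positive values were all well above the Cd28-zero ones, and the log2 fold was 0.63 against depth-matched cells. Slamf6, a homophilic SLAM receptor of lymphocytes, was at 35.3, 43.5 and 25.8 CPM against 12.6, 14.5 and 17.2 CPM (log2 1.28, SE 0.16, edgeR adjusted p = 0.000112). Here tag 3 showed the narrowest gap, and the log2 fold was 0.93 against depth-matched cells. Cd27, the stage marker itself, was at 131, 124 and 112 CPM against 73.4, 72.4 and 69.8 CPM (log2 0.80, SE 0.06, edgeR adjusted p = 5.83e-07). The 3 tags lay within a narrow range in each class.

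The other early genes were the adhesion receptor Plxnc1 (log2 0.86), Kbtbd11 (0.99), Crtam (0.80), the chemokine receptors Cxcr3 (0.80) and Ccr2 (0.67), Cd160 (0.71), the transcription factor Tox (0.64) and Cmtm7 (0.60). All 8 also passed against depth-matched cells, at log2 folds of 0.34 (Cmtm7) to 0.69 (Kbtbd11). In cells thinned to 2500 UMIs 14 of the 19 early genes were higher and 0 lower, beside 189 higher and 76 lower of 10020 tested. Crtam (log2 0.28) and Cmtm7 (0.34) did not pass after thinning. Xcl1, a chemokine that attracts cross-presenting dendritic cells, was at 407, 432 and 354 CPM against 322, 256 and 243 CPM. It passed in the main comparison (log2 0.58) but neither against depth-matched cells (log2 0.28, edgeR adjusted p = 0.093) nor without the tag block. Kit and Myb, genes of progenitors, passed in the main comparison at log2 0.53 and 0.50, with overlapping classes, and did not pass against depth-matched cells (edgeR adjusted p = 0.40 and 0.111). Both turned direction when Trbc1, Trbc2 and other T cell genes had to be at 0, Kit to log2 -0.29 (not called) and Myb to log2 -1.41, where it was called lower (edgeR adjusted p = 0.00459). Eomes was the exception on the list, at 369, 320.1 and 315 CPM against 361, 327 and 284 CPM. The classes overlapped fully, and the edgeR adjusted p was 0.45.

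**Figure D2:**
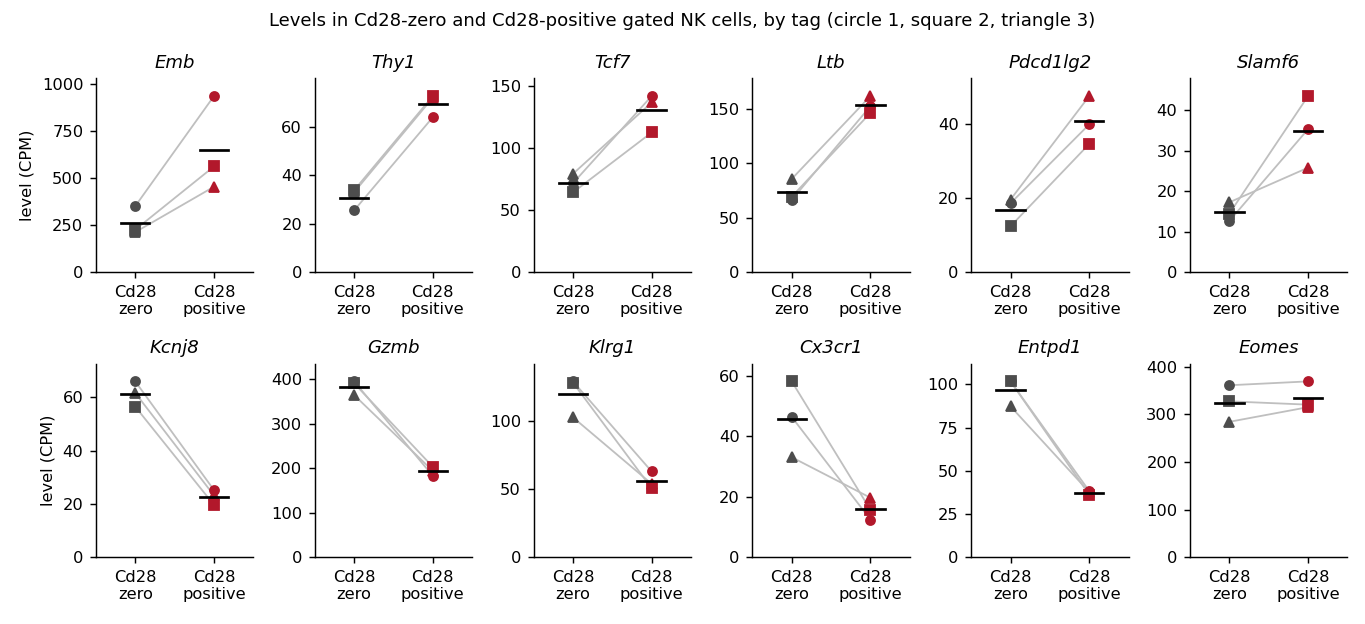
Level in CPM (linear y axis from 0, own scale per gene) of 12 genes in Cd28-zero (grey) and Cd28-positive (red) gated NK cells, with circle, square and triangle for tags 1, 2 and 3, a line joining the classes of a tag and a bar at the mean. Emb, Thy1, Tcf7, Ltb, Pdcd1lg2 and Slamf6 are higher and Kcnj8, Gzmb, Klrg1, Cx3cr1 and Entpd1 lower in 3 of 3 tags, while Eomes overlaps.

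Late NK genes showed the mirror image. Of the 18 genes of the late list, 16 were lower and 0 higher (median log2 fold -0.62). Against depth-matched cells 15 were lower and 0 higher (median -0.45). Beside this, 2.07% of all tested genes were lower, and 0.917% against depth-matched cells. Like the early list, the late list was made with earlier results of these data known and is no independent evidence of stage. Cx3cr1, the fractalkine receptor of mature NK cells, was at 12.5, 15.7 and 19.7 CPM in Cd28-positive cells against 46.3, 58.1 and 33.1 CPM in Cd28-zero cells. The classes did not overlap, at 2.87-fold lower (log2 -1.52, SE 0.16, edgeR adjusted p = 2.45e-05), and the difference was nearly as large against depth-matched cells (log2 -1.40). Entpd1 (CD39), which degrades extracellular ATP, was at 38.3, 36.2 and 37.7 CPM against 102, 102 and 87.2 CPM (log2 -1.35, SE 0.08, edgeR adjusted p = 2.57e-08). Klrg1, an inhibitory receptor of terminally mature NK cells, was at 63.0, 50.6 and 53.9 CPM against 129, 128 and 103 CPM (log2 -1.09, SE 0.08, edgeR adjusted p = 2.43e-07). For both genes the tags were close together within Cd28-positive cells and lay far below every Cd28-zero value.

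Further late genes that were lower included Cdc20b (log2 -1.35), Ly6c2 (-1.14, near-identical to Ly6c1), the chymase Cma1 (-0.93), the sphingosine receptor S1pr5 (-0.61), Irf8 (-0.52), Zeb2 (-0.49), Itgam (-0.45) and the chemokine Ccl5 (-0.30). Each of them also passed against depth-matched cells, and after thinning Itgam did not (log2 -0.23, edgeR adjusted p = 0.0544). Zeb2, a repressor that drives terminal maturation, was at 692, 689 and 694 CPM against 1005, 1012 and 944 CPM. The Cd28-positive tags were nearly the same, at 1.40-fold lower. Of the late genes 2 did not pass: Tbx21 (T-BET) was at 192, 225 and 218 CPM against 215, 236 and 219 CPM and S100a4 had a log2 fold of 0.11.

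Granule genes divided. Of 20 tested, 3 were higher and 9 lower, beside 4.76% and 2.07% of all tested genes. Without Rab27b, which was named from these data, 2 of 19 were higher and 9 lower. Against depth-matched cells 0 were higher and 4 lower with or without Rab27b, beside 0.991% and 0.917% of all tested genes. Gzmb was at 183, 204 and 195 CPM in Cd28-positive cells against 396, 392 and 365 CPM, 1.94-fold lower (log2 -0.96, SE 0.05, edgeR adjusted p = 2.57e-08). The classes were far apart, and the log2 fold was -0.75 against depth-matched cells. Gzma, the most abundant granzyme in UMIs, was at 6666, 7249 and 6443 CPM against 10639, 11033 and 9290 CPM (log2 -0.58, SE 0.03, edgeR adjusted p = 1.12e-08), and perforin (Prf1) was at 678, 660.1 and 635 CPM against 991, 920 and 807 CPM (log2 -0.43). Gzma, Prf1 and the protease inhibitor Serpinb9b (log2 -0.75) also passed against depth-matched cells. Gzmm, a granzyme of innate lymphocytes, went the other way, at 21.7, 33.7 and 32.6 CPM against 16.1, 12.2 and 12.1 CPM (log2 1.16, SE 0.17, edgeR adjusted p = 0.000544). Its classes did not overlap, and against depth-matched cells it was at log2 0.74 (edgeR adjusted p = 0.0511). Gzmk, at 5.94, 9.21 and 6.13 CPM against 3.65, 5.01 and 2.01 CPM, passed in the main comparison and not against depth-matched cells.

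Kcnj8, at chr6:142564837-142571614 on the minus strand, encodes Kir6.1, the pore subunit of an ATP-sensitive potassium channel that the study is about. It was at 25.2, 19.7 and 23.2 CPM in Cd28-positive cells against 66.0, 56.5 and 61.7 CPM in Cd28-zero cells. All Cd28-positive tags lay far below all Cd28-zero tags, at 2.67-fold lower (log2 -1.41, SE 0.09, edgeR adjusted p = 5.80e-08) and log2 -0.95 against depth-matched cells (edgeR adjusted p = 0.000676). A Kcnj8 UMI was found in 9.99% ± 1.00 of Cd28-positive and 19.4% ± 1.29 of Cd28-zero cells, although the Cd28-positive cells were deeper. The channel genes Kcnj11 and Abcc9 had no UMI in Cd28-positive cells and were near 0 in Cd28-zero cells too, at no more than 0.281 and 0.222 CPM in any tag.

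The largest differences by the fixed rule held genes outside these lists. Ifngas1, a long noncoding RNA gene near Ifng (at chr10:118502035-118556525 on the minus strand, with no overlapping gene model), was at 23.2, 24.5 and 24.2 CPM against 5.76, 7.56 and 5.46 CPM. The classes were widely separated, at 3.86-fold higher (log2 1.95, SE 0.16, edgeR adjusted p = 1.83e-06) and log2 1.34 against depth-matched cells. In cells thinned to 2500 UMIs Ifngas1 was at log2 0.94 and did not pass (edgeR adjusted p = 0.0958). Pdcd1lg2, encoding the PD-1 ligand PD-L2 (at chr19:29410919-29471161 on the plus strand), was at 39.8, 34.5 and 47.4 CPM against 18.5, 12.3 and 19.5 CPM (log2 1.31, SE 0.12, edgeR adjusted p = 2.80e-06). Its classes did not overlap either, and it was at log2 1.03 against depth-matched cells. The sulfotransferase gene Sult2b1 (log2 1.03) and the transporter gene Slco3a1 (1.05) also passed both comparisons, although Sult2b1 did not pass after thinning (log2 0.76, edgeR adjusted p = 0.0891), while the adhesion gene Dscam (1.07) and the collagen gene Col19a1 (1.15) passed only the main one.

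Some of the largest differences were in genes of other cell types. Lyz2, a lysozyme of monocytes and macrophages, was at 113, 206 and 73.5 CPM against 37.4, 40.5 and 53.7 CPM, did not pass against depth-matched cells (edgeR adjusted p = 0.142) and was at log2 -0.45 without cells above 7801 UMIs. Car1 and Blvrb, genes of erythroid cells, and Jchain and Igkc, genes of plasma and B cells, were lower, with a high Cd28-zero value in tag 3: 51.4, 65.2 and 287 CPM for Car1 and 152, 140.2 and 280 CPM for Igkc. Of these 5 genes only Car1 passed against depth-matched cells (log2 -1.82). Frmd5 (log2 -1.59), a cytoskeletal linker gene, and Rac3 (-1.15), a small GTPase gene, were lower in both comparisons.

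Marker lists of other cell types were summed to see whether they moved with the classes. B cell markers summed to 169 to 215 CPM in Cd28-positive and 240 to 408 CPM in Cd28-zero tags, with 1 of 7 lower (Igkc) and 0 higher. Dendritic and monocyte markers summed to 247 to 880 CPM against 613 to 1029 CPM, with 1 of 10 higher (Lyz2), and erythroid and platelet markers to 279 to 364 CPM against 267 to 682 CPM, with 3 of 9 lower. T cell markers summed to 813 to 932 CPM against 744 to 798 CPM, led by Trbc1, Trbc2 and Lef1, with 2 of 9 higher (Trbc1 at log2 0.31 and Trbc2 at 0.26) and 5 of the 18 listed at 0 in Cd28-positive cells. ILC1 markers summed to 162 to 186 CPM against 134 to 155 CPM, with 3 of 10 higher (Rora, Inpp4b and Gpr183) and against depth-matched cells 0 of 8 higher and 2 lower (Tmem176a and Tmem176b). Beside these counts, 4.76% of all tested genes were higher and 2.07% lower, and 0.991% and 0.917% against depth-matched cells. The part of other cell types in the results above was not tested. Leaving out cells with at least 2 UMIs of other-type markers, a filter chosen after seeing the data, kept 861 Cd28-positive and 3194 Cd28-zero cells. Among them 16 of 19 early genes were higher and 15 of 18 late genes lower, beside 391 higher and 146 lower of 9906 tested.

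**Figure D3:**
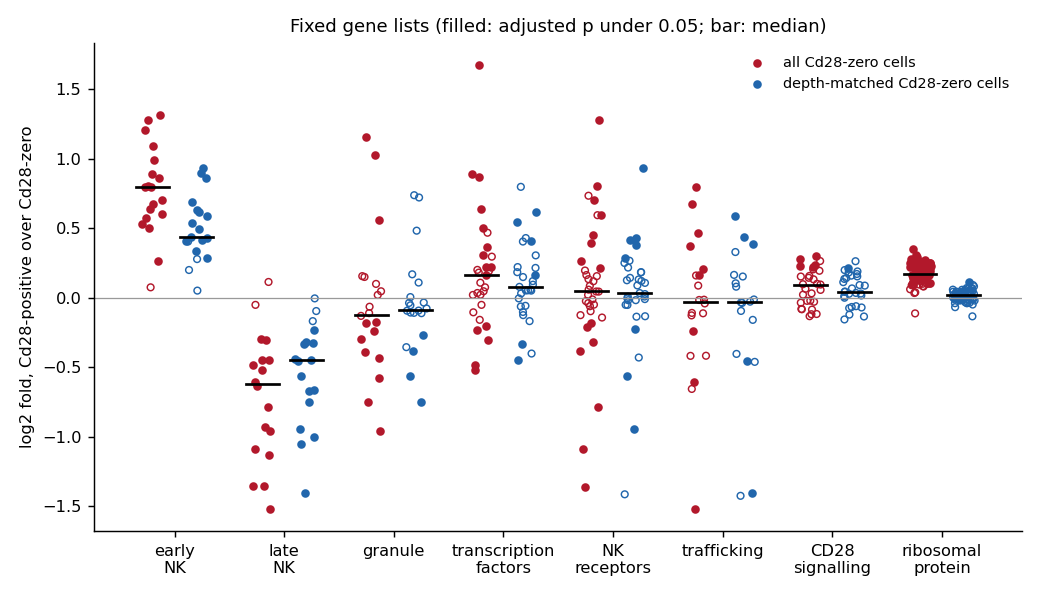
Log2 fold (Cd28-positive over Cd28-zero) of each tested gene of 8 lists, in red against all Cd28-zero cells and in blue against depth-matched ones, filled where the edgeR adjusted p was under 0.05, with a bar at the list's median. Medians of the early list are 0.80 and 0.44 and of the late list -0.62 and -0.45, while ribosomal protein genes move from 0.17 to 0.02 when depth is matched.

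Of 29 tested transcription factors, 10 were higher and 5 lower, beside 4.76% and 2.07% of all tested genes. Against depth-matched cells 4 were higher and 2 lower, beside 0.991% and 0.917%. Besides Tcf7 and Tox, Ikzf2 (Helios) was higher at 47.8, 47.9 and 66.8 CPM against 27.0, 32.0 and 30.2 CPM (log2 0.87, SE 0.10, edgeR adjusted p = 6.25e-05), and Stat4, which relays interleukin-12 signals, at log2 0.22. Both also passed against depth-matched cells, at log2 0.54 and 0.16. Id3 had a log2 fold of 1.67 in the main comparison but rested on 0.891, 12.8 and 6.45 CPM against 1.40, 3.00 and 1.58 CPM, with overlapping classes, and did not pass against depth-matched cells.

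NK receptors were higher in 8 and lower in 7 of 35 tested, and against depth-matched cells higher in 5 and lower in 3 of 33. Without Klrc1, which was named from these data, 7 of 34 were higher, and 4 of 32 against depth-matched cells. Over all tested genes 4.76% were higher and 2.07% lower, and 0.991% and 0.917% against depth-matched cells. Cd7, a surface glycoprotein of lymphoid cells, was at 349, 351 and 364 CPM against 221, 250.2 and 246 CPM (log2 0.60, SE 0.05, edgeR adjusted p = 1.32e-06). The tags were narrowly spread and the classes well apart. Among Ly49 receptors, whose near-identical copies make counts uncertain, Klra9 was lower at log2 -0.79 and Klra8 (Ly49H), a receptor for a cytomegalovirus protein, at -0.32. Both passed against depth-matched cells.

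Genes of CD28 signalling differed by small folds, from log2 -0.13 to 0.30. Of 29 tested genes of CD28 signalling, 5 were higher and 0 lower, beside 4.76% and 2.07% of all tested genes. Those higher included Nfkb1 (log2 0.30), Cblb (0.28) and Lck (0.23). Against depth-matched cells only Lck was higher (log2 0.21, edgeR adjusted p = 0.0388), beside 0.991% of all tested genes. It did not pass after thinning (log2 0.14). Lck, the kinase that phosphorylates antigen receptors and CD28 in T cells, was at 257, 282 and 261 CPM against 226, 252 and 219 CPM. The Cd28-positive values all lay above the Cd28-zero ones, but by a narrow gap. Of 7 tested genes of the CD28 family and its ligands, Pdcd1lg2, Icos (log2 0.47) and Cd274 (0.35) were higher and Cd86 lower, and only Pdcd1lg2 also passed against depth-matched cells. Cd86, a ligand of CD28, was at 3.27, 7.95 and 4.19 CPM against 10.1, 8.45 and 15.5 CPM, and Pdcd1 itself was nearly undetected, at no more than 0.223 CPM in any tag of either class.

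Among trafficking genes 6 of 20 were higher and 3 lower, and against depth-matched cells 3 of 19 higher and 2 lower. Those higher in both comparisons included Ccr2 and Cxcr3, the chemokine receptors of the early list. Of 17 cytokine receptors 3 were higher and 2 lower, with 0 in either direction against depth-matched cells. Of 11 cytokine and chemokine genes, Ltb and Xcl1 were higher and Ccl5 lower. Over all tested genes 4.76% were higher and 2.07% lower, and 0.991% and 0.917% against depth-matched cells.

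Lists tied to growth and RNA content changed with how depth was handled, by different amounts for matching and thinning. Ribosomal protein genes were higher in 58 of 77 (median log2 fold 0.17), in 1 of 77 against depth-matched cells (median 0.02) and in 37 of 77 when cells were thinned to 2500 UMIs (median 0.10). Cell cycle genes were higher in 4 of 22, led by Top2a (log2 0.75) and Mki67 (0.71), in 0 of 22 against depth-matched cells and in 0 of 19 tested after thinning. Mitochondrially encoded genes were higher in 4 of 13, in 0 of 13 against depth-matched cells and in 3 of 13 after thinning. Over all tested genes 4.76% were higher in the main comparison, 0.991% against depth-matched cells and 189 of 10020 after thinning.

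The split by Cd27 and Itgam UMIs placed more Cd28-positive cells among those with Cd27. Cd27-only cells made up 21.6%, 21.7% and 19.3% of Cd28-positive cells in tags 1, 2 and 3 and 9.60%, 11.4% and 11.3% of Cd28-zero cells, and the classes did not overlap. After thinning to 2500 UMIs the means were 18.1% ± 0.430 and 10.8% ± 0.637. Itgam-only cells made up 31.6% ± 3.26 and 43.6% ± 1.35, and after thinning 29.7% ± 0.598 and 36.5% ± 0.893. They were still the largest class of Cd28-positive cells before thinning. Cells with both made up 20.8% ± 3.49 and 11.3% ± 0.343, but 7.57% ± 0.314 and 5.55% ± 0.376 after thinning, and many cells without either UMI cannot be placed. With 3 pairs of tags an exact sign-flip permutation test cannot go below p = 0.25, so no test is given. Seen the other way, a Cd28 UMI was found after thinning in 27.4% ± 1.94 of Cd27-only, 23.5% ± 1.27 of both, 15.5% ± 0.605 of Itgam-only and 17.5% ± 0.364 of unplaced cells.

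Within each of these 4 classes Cd28-positive cells still differed from Cd28-zero cells. Emb, Thy1, Tcf7 and Ltb were higher and Gzmb, Klrg1, Kcnj8 and Entpd1 lower in 3 of 3 tags in all 4 classes, as a description with no test and with deeper Cd28-positive cells in each. In Itgam-only cells Gzmb was at 264, 294 and 218 CPM against 508, 500.2 and 510 CPM, and Tcf7 at 110, 72.7 and 104 CPM against 44.5, 43.5 and 53.5 CPM. In Cd27-only cells Kcnj8 was at 4.83, 5.32 and 10.0 CPM against 22.3, 23.6 and 27.6 CPM. The classes did not overlap in any of these 3 comparisons.

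**Figure D4:**
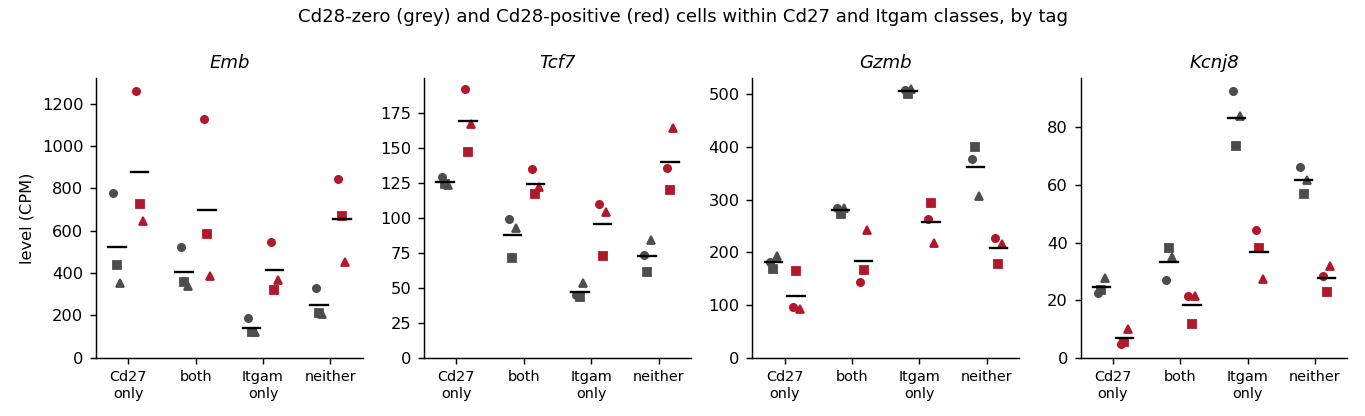
Level in CPM (linear y axis from 0) of Emb, Tcf7, Gzmb and Kcnj8 in Cd28-zero (grey) and Cd28-positive (red) cells within the classes by Cd27 and Itgam UMIs, with circle, square and triangle for tags 1, 2 and 3 and a bar at the mean. In every class Emb and Tcf7 are higher and Gzmb and Kcnj8 lower in Cd28-positive cells of 3 of 3 tags, although Emb values overlap between tags in the Cd27-only and both classes.

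Some differences were graded by the number of Cd28 UMIs and others were not, when all cells were thinned to 2500 UMIs, with 5306 cells at 0, 922 at 1, 209 at 2 and 60 at 3 or more. Mean Gzma was 11035 ± 644, 8192 ± 219, 6645 ± 731 and 5012 ± 1513 CPM over these steps. Cd27 was at 79.2 ± 0.864, 117 ± 5.98, 146 ± 46.3 and 223 ± 54.9 CPM, and Zeb2 at 1016 ± 28.9, 812 ± 50.3, 735 ± 68.9 and 590 ± 70.4 CPM. Means of Gzma and Zeb2 were lower and of Cd27 higher at each step, but the steps above 1 UMI rest on few cells and overlap between tags. Other genes had no such order: Itgam means were 254, 207, 264 and 175 CPM, Cx3cr1 47.1, 18.2, 3.68 and 15.6 CPM, Rab27b 31.2, 44.8, 60.6 and 53.9 CPM, and Klrc1 214, 235, 223 and 248 CPM. In the thinned cells Eomes stayed level within its spread, at 330 ± 20.2, 342 ± 34.5, 361 ± 61.1 and 377 ± 184 CPM. Before thinning, the groups by Cd28 UMIs had medians of 3987, 4587.5, 4761 and 4813.5 UMIs, so original depth still rose over the steps. Its part in the order was not tested. These groups come from the same counts as the rule and are a description.

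**Figure D5:**
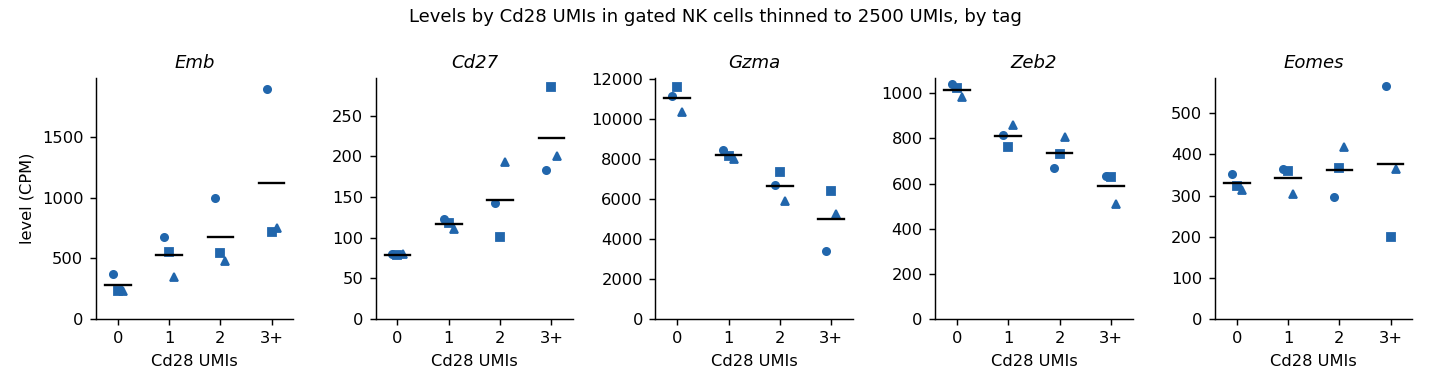
Level in CPM (linear y axis from 0) of 5 genes by the number of Cd28 UMIs (x axis) in gated NK cells thinned to 2500 UMIs, with circle, square and triangle for tags 1, 2 and 3 and a bar at the mean. Means of Emb and Cd27 are higher and of Gzma and Zeb2 lower at each step, with wide spread at 3 or more UMIs, where 60 cells remain, and Eomes is level.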

How the data were processed

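Single-cell RNA was measured in 1 library of NK-enriched spleen cells. The authors deposited UMI counts per gene, tag and barcode. Cell Ranger 7.0.0 wrote them, per the file headers. Cell Ranger, Seurat and mm10 appear in the submitters' processing notes. The gene annotation, and whether intronic reads counted, is not given in the sources used here. Counts were summed per tag and class (6 sums of 3099998 to 8989399 UMIs) and tested by the quasi-likelihood test of edgeR 4.0.16 in R 4.3.3, with limma 3.58.1, TMM scaling, the package's expression filter and the tag as a block. P-values were adjusted by Benjamini-Hochberg over all tested genes. The steps were first tested on simulated data. The 10 genes of the gate were not tested.

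Both classes of a tag come from the same tagged cells, and deviations of same-tag classes from their class means correlated at 0.47, 0.27 and 0.26 across genes. DESeq2 1.42.0, depth matching, thinning, other gates and leaving out each tag were alternatives. Depth matching took, within a tag, the unused Cd28-zero cell nearest in UMIs. After thinning, cells were classed anew by the Cd28 UMIs left. Barcodes with several tags were left out as doublets, and doublets within a tag remain. Cutoffs were 140, 196 and 138 tag counts. B cell barcodes held at least 2 of Cd79a, Cd79b and Ebf1, T cell barcodes at least 2 of Cd3d, Cd3e, Cd3g and Trac, and both none of the 3 NK genes.

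The members and the 20 gene lists were chosen with earlier results of these data known. The genes named are the markers and Kcnj8, the 12 with the largest called fold in each direction at 20 CPM or more in the higher class, without unnamed, ribosomal, mitochondrial and histone genes, and up to 6 of each list by absolute fold. Others, such as Cmtm7, Zeb2 or Lck, were named from the lists after their values were seen. The ribosomal list was corrected after values were seen, removing kinases and pseudogenes. A few genes of the lists are not reported here.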

Additional observations from a re-analysis of the deposited data

Results flagged for a closer look

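Barcodes outside the analysis also held Cd28. Among the 510 barcodes with no tag, 280 passed the NK gate and 88 of these, or 31.4% (exact binomial 95% interval 26.0 to 37.2%), had a Cd28 UMI, at a median of 3816 UMIs. Among the 3540 barcodes with several tags, 1900 passed the gate and 735 of these, or 38.7% (exact interval 36.5 to 40.9%), had one, at a median of 7253 UMIs. These barcodes entered no comparison. For the background, 1.91% of B cell barcodes had a Cd28 UMI at a median of 3682.5 UMIs. The barcodes with several tags are deeper than the single-tag gated cells (median 3832.5 UMIs), and the part of depth in their share was not tested.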

How the results depend on the processing

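The tag numbers pair the classes, so the tag was a block throughout. With no replicate block 69 genes were higher and 27 lower. Without it Xcl1, Irf8, Klra8, Trbc1, Lck and Stat4, among others, no longer passed. DESeq2 called 208 and 69, and cells thinned to 2500 UMIs gave 189 and 76 of 10020 tested. Depth-matched cells gave 107 and 99. Leaving out each tag gave 368 to 489 higher and 147 to 260 lower, the fewest without tag 3. At least 2 Cd28 UMIs gave 408 lower, no expression filter 504 lower, and leaving out cells with other-type markers (chosen after seeing the data) 146 lower. Requiring Trbc1, Trbc2 and other T cell genes at 0, which left 289 Cd28-positive and 1569 Cd28-zero cells, gave 148 higher and 154 lower, with 8 early genes higher and 9 late genes lower. Under it log2 folds turned negative for Kit (-0.29), Myb (-1.41), Rpl36a (-0.18), Rps18 (-0.13), Rps20 (-0.25) and Rps28 (-0.16). Lyz2 turned to -0.45 without cells above 7801 UMIs and Nusap1 to -0.53 when thinned. The cause was not tested.

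The Cd28 share was 18.35% when thinned and 10.8% at 2 or more UMIs. Differences in the share of cells with a marker, in percentage points, were 13.4 for Thy1 (8.31 depth-matched, 6.0 thinned), 33.4 for Emb (20.02, 21.8), 10.4 for Klrc1 (5.44, 2.91) and 6.09 for Rab27b (4.13, 3.00). Stage differences were 10.1 for Cd27-only (6.41, 7.30), 9.57 for both (3.54, 2.02), -12.0 for Itgam-only (-6.82 thinned) and -7.66 for neither (-0.13, -2.50). Of 77 called named genes, 949 of 1203 values under alternatives kept direction and call, 246 kept direction only and 8 reversed. Depth limits genes of few UMIs, such as Gzmk and Id3.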
